A study of Mus musculus with 12 samples.

Results

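The cytochrome P450 subfamily 3A genes were followed in the livers of mice in which the miR-29 family was inhibited. The members were the rows of the deposited table whose symbol was Cyp3a11, Cyp3a13, Cyp3a16, Cyp3a25, Cyp3a41a, Cyp3a41b, Cyp3a44 or Cyp3a59, and 7 of these 8 genes had a row among 21705 genes in all; Cyp3a41a was not analysed here. All mice were C57BL/6J females that were 10 to 12 weeks old when injected, and all were fasted for 18 h before livers were collected on day 7. Each of 6 mice received saline, and each of 6 received LNA29, a mixture of a locked nucleic acid against miR-29a and another against miR-29b and miR-29c at 20 mg/kg each, through the tail vein. The comparison asks what changes in liver mRNA when these microRNAs are blocked. Because the control mice received saline, an effect of blocking miR-29 and an effect of carrying any locked nucleic acid cannot be told apart in these data.

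Cyp3a enzymes sit in the endoplasmic reticulum of hepatocytes and of intestinal epithelium, where they oxidize drugs, steroids and bile acids with electrons from cytochrome P450 reductase and cytochrome b5. Their genes stand in a cluster that arose by repeated duplication, and PXR (Nr1i2) and CAR (Nr1i3), nuclear receptors that pair with RXR, switch them on when drugs or bile acids bind. In mouse liver some members are set by sex through the pattern of growth hormone release, with Cyp3a41 and Cyp3a44 known as female-predominant, and Cyp3a16 is known mainly from fetal and newborn liver.

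Sequences are shown first because they bear on which members can be measured apart and on how the inhibited microRNAs could meet them. The 3 mature microRNAs that LNA29 binds share 1 seed, the bases 2 to 8 that pair with a target, given in capitals. They were read from RefSeq (GRCm38.p6).
mmu-miR-29a-3p: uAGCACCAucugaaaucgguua
mmu-miR-29b-3p: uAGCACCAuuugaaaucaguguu
mmu-miR-29c-3p: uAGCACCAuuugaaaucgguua
The letters that match this seed in DNA, TGGTGCT, occurred in the 3′ UTR of 1 of the 8 Cyp3a genes and in 13.1% of the 21022 genes with a 3′ UTR in the annotation. That gene was Cyp3a16, with the match at chr5:145436339-145436345 on the minus strand (GRCm38), in exon 13 of 13 and 96 bases into a 3′ UTR of 132 bases. The Cyp3a genes were searched in the transcript with the longest coding sequence, and all genes in their longest 3′ UTR. The rates therefore rest on unlike choices of 3′ UTR. The match is shown in capitals with the bases around it.
Cyp3a16 3′ UTR: tcaagatgaaaTGGTGCTtaactgattga

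The promoters of 4 members are shown to set the most abundant gene, Cyp3a11, beside a close relative, Cyp3a41b, and beside the pair Cyp3a25 and Cyp3a59, whose levels moved together from liver to liver. Each runs from 250 bases before the start of the gene to 50 bases after it (RefSeq, GRCm38.p6). Capitals mark the hexamer AGGTCA that nuclear receptors read, its variant with the letters AGTTCA, and CAAAGTCCA, a core of HNF4 sites. Both strands were searched, so that a capital stretch may show the letters of a motif reversed and complemented. The windows lie at chr5:145879805-145880104 on the minus strand for Cyp3a11, chr5:145584681-145584980 on the minus strand for Cyp3a41b, chr5:146009569-146009868 on the minus strand for Cyp3a25 and chr5:146079008-146079307 on the plus strand for Cyp3a59.
Cyp3a11: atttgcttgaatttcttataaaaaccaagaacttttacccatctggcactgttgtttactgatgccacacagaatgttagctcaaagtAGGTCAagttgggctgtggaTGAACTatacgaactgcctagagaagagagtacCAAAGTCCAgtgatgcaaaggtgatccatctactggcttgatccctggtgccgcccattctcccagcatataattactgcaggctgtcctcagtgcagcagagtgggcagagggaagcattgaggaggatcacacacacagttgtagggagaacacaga
Cyp3a41b: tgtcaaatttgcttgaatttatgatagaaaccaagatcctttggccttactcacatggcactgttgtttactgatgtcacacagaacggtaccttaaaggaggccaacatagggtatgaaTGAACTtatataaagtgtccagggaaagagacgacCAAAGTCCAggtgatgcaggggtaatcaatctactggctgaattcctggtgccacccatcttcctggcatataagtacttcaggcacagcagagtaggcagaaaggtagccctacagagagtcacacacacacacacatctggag
Cyp3a25: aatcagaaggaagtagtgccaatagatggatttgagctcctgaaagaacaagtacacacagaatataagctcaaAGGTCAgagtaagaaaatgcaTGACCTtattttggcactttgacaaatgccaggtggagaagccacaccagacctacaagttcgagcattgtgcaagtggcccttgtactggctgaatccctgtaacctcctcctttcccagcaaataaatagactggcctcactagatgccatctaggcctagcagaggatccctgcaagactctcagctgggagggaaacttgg
Cyp3a59: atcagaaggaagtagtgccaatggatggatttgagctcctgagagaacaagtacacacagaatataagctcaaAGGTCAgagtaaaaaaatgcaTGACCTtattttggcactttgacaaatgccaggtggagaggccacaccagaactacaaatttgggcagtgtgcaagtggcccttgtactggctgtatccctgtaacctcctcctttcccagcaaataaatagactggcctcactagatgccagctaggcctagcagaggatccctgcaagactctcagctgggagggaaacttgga
Among the 8 members, AGGTCA was found in 4 promoters and AGTTCA in 3, beside 16.3% and 13.99% of 32851 promoters of the same length. CAAAGTCCA was found in 4 of them, Cyp3a11, Cyp3a16, Cyp3a41a and Cyp3a41b, and in 0.475% of all promoters. TTCNNNGAA, the letters of a STAT site, were found in 0 of 8 and in 8.30% of all promoters. The Cyp3a11 promoter was 74.4% identical to that of Cyp3a16, 71.2% to that of Cyp3a44, 69.6% to that of Cyp3a41b and 42.1% to that of Cyp3a25. The Cyp3a25 and Cyp3a59 promoters were 95.7% identical, and those of Cyp3a41a and Cyp3a41b 97.3%.

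Similarity in the transcripts decides how well the members can be counted apart. In GRCm38 the Cyp3a41a and Cyp3a41b coding sequences differed in 2 of 1515 positions, and 88.2% of the 100-base windows of the Cyp3a41b transcript also occurred in Cyp3a41a. The Cyp3a41b row may therefore hold reads of either copy, and its values are uncertain as a measure of Cyp3a41b alone. The other tested members could be told apart over most of their length, where the share of windows found in a transcript of any other gene was 6.05% for Cyp3a25 and 5.61% for Cyp3a59 (all in each other), 5.37% for Cyp3a44, 0.312% for Cyp3a11, 0.123% for Cyp3a16 and 0% for Cyp3a13. The Cyp3a11 coding sequence was 95.05% identical to Cyp3a41b, 94.9% to Cyp3a44, 92.8% to Cyp3a16 and 76.4% to Cyp3a13. A further gene of the cluster that has a row, Cyp3a57, was listed without reads in 10 of 12 livers and with 1 read in each of the other two. RefSeq places all 8 members on chromosome 5, with Cyp3a13 apart from the cluster and Cyp3a11 between Cyp3a44 and Cyp3a25.

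The livers held between 7696081 and 19062437 estimated reads on genes, and albumin took between 35.7% and 46.9% of the summed values, with the lowest share in saline replicate 49. Values were scaled by the authors to an upper quartile of 1000, a read was worth between 9.80 and 24.4, and a gene without reads was listed at 1. LNA29 livers had fewer estimated reads in the median, 9123460 against 12012000 in saline livers, with overlapping ranges. A read was worth a median of 18.4 with LNA29 and 12.9 with saline. The 7 hepatocyte markers that had a row, among them albumin, were high in all livers, while of 8 intestinal epithelium markers 5 (Cdx1, Cdx2, Alpi, Lct and Sis) were listed at 1 in every liver. The 12 livers are separate mice in the labels, and no pair of libraries held identical values.

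Divided by transcript length, Cyp3a11 (Entrez 13112) was the most abundant member in both groups. Its median in saline livers was 43748 per kilobase. The medians per kilobase of the other genes came to 28.8% of it for Cyp3a41b (Entrez 100041375), 8.25% for Cyp3a25 (56388), 4.28% for Cyp3a13 (13113), 1.45% for Cyp3a44 (337924), 0.741% for Cyp3a59 (100041449) and 0.204% for Cyp3a16 (13114). In LNA29 livers the medians per kilobase kept this order, at 95710 for Cyp3a11, 5185 for Cyp3a41b, 2910 for Cyp3a25, 1483 for Cyp3a13, 480 for Cyp3a44, 353 for Cyp3a59 and 118 for Cyp3a16. Not all neighbours in the order were apart beyond their spread. Per kilobase, the ranges of Cyp3a41b and Cyp3a25 overlapped in both groups, as did those of Cyp3a44 and Cyp3a59 and those of Cyp3a59 and Cyp3a16. Cyp3a13 and Cyp3a44 overlapped among LNA29 livers only, and Cyp3a11 lay above Cyp3a41b in all 12 livers.

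**Figure D1:**
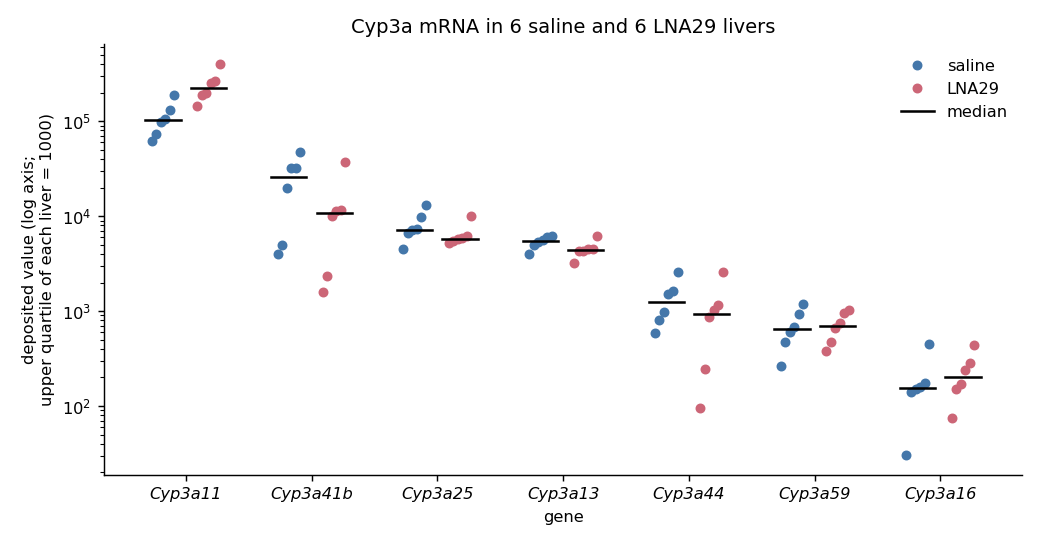
Deposited value of each Cyp3a gene in each liver (log axis, upper quartile of each liver at 1000), with 6 saline livers in blue, 6 LNA29 livers in red and a bar at each group's median. For Cyp3a11, 5 of 6 LNA29 livers lie above the highest saline liver, and for the other 6 genes the groups overlap widely.

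Cyp3a11 was the only member that differed between the groups by a test on its own, and it did not pass after adjustment over all genes. The paper reports Cyp3a11, with other P450 genes such as Cyp2b10, as significantly higher in LNA29 livers. Its calls rest on a one-tailed t-test with a fold limit, and its methods describe no adjustment over genes. Cyp3a11 encodes the main drug-metabolizing Cyp3a enzyme of mouse liver. Its deposited value ran from 62006 over a median of 102545 to 190773 in saline livers, and from 143623 over 224343 to 405759 in LNA29 livers. The groups overlapped through LNA29 replicate 52, the only LNA29 liver below the highest saline liver, and 6 of 6 LNA29 livers lay above the saline median. The fitted level was 2.23-fold higher with LNA29 (95% confidence interval 1.45 to 3.42). The exact permutation p was 0.00433 (two-sided, over the 924 divisions of the livers, which can give no p below 0.00216), and the limma p was 0.00106, rank 77 of 12486 tested genes, with an adjusted p of 0.172. As RNA came from whole liver tissue, fewer cells of a type and less RNA per cell cannot be told apart for this or any other gene.

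The other abundant members were Cyp3a41b, Cyp3a25 and Cyp3a13. Cyp3a41b, a female-predominant steroid hydroxylase gene, ran from 3974 over 25994 to 47018 in saline livers and from 1606 over 10701 to 36933 in LNA29 livers. The lowest values were those of LNA29 replicates 48 and 50, below every saline liver, and the groups otherwise overlapped. Cyp3a25, expressed in liver and intestine, ran from 4546 over 7217 to 13275 with saline and from 5259 over 5820 to 9939 with LNA29. Of the LNA29 livers, replicate 44 alone exceeded the saline median, and all 6 lay within the saline range. Cyp3a13, known from both liver and gut, ran from 3982 over 5530 to 6137 with saline and from 3208 over 4383 to 6113 with LNA29. Here 1 of 6 LNA29 livers, again replicate 44, lay above the saline median. The log2 fold changes were -1.12 ± 0.71 (SE) for Cyp3a41b, -0.30 ± 0.22 for Cyp3a25 and -0.27 ± 0.16 for Cyp3a13, with exact permutation p of 0.249, 0.268 and 0.108. Their limma adjusted p were 0.761, 0.802 and 0.732, so that none of these differences passed either test.

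The members with few reads were no clearer. Cyp3a44, the other female-predominant gene, ran from 586 over 1246 to 2577 in saline livers and from 94.3 over 941 to 2583 in LNA29 livers. LNA29 replicates 48 and 52 lay below all saline livers, and replicate 44 above all of them. Cyp3a59 ran from 261 over 645 to 1179 with saline and from 382 over 703 to 1036 with LNA29, so that the LNA29 range lay inside the saline range. Cyp3a16, the gene with the seed match shown above, ran from 30.3 over 154 to 451 with saline and from 75.5 over 204 to 438 with LNA29. These values stand for 3 to 46 reads and 4 to 32 reads, and the groups overlapped. The log2 fold changes were -0.93 ± 0.60 (SE) for Cyp3a44, 0.11 ± 0.33 for Cyp3a59 and 0.47 ± 0.52 for Cyp3a16, with exact permutation p of 0.279, 0.794 and 0.502. For Cyp3a16 the 95% confidence interval of the fold ran from 0.647 to 2.96, which includes differences in either direction.

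Among the 7 members, 0 passed an adjusted limma p of 0.05, beside 0.16% of all tested genes (0.0721% higher and 0.0881% lower). At an unadjusted limma p under 0.05 there was 1, Cyp3a11, beside 7.91% of tested genes in either direction and 1.95% in the higher direction. By the exact permutation test there was also 1, beside 8.5%. In 0 of 7 members did the groups separate fully, beside 0.985% of tested genes. The median log2 fold change was -0.27 over the members and -0.093 over all tested genes. In LNA29, 3 members were higher and 4 lower, where 61.4% of all tested genes were lower. Single livers moved these counts. Without LNA29 replicate 44, the highest LNA29 liver for 6 of the 7 genes, 4 members reached an unadjusted p under 0.05, beside 9.17% of all tested genes in the same fit, and Cyp3a59 turned to -0.021. Without saline replicate 47, 3 did, beside 8.28%, and Cyp3a59 turned to -0.14. Without saline replicate 51, 2 did, beside 6.45%.

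The summed Cyp3a level followed Cyp3a11, since reads were mostly from that gene. The sum of the 7 deposited values, not divided by length, ran from 80414 over 145515 to 237730 in saline livers and from 165358 over 244093 to 462600 in LNA29 livers. With LNA29, 3 of 6 livers exceeded the highest saline liver and 6 of 6 the saline median. The sum of the 6 genes other than Cyp3a11 ran from 18408 over 38309 to 63508 with saline and from 11493 over 22101 to 56841 with LNA29, where 1 of 6 LNA29 livers lay above the saline median. Sums and shares are given as descriptions, with no test.

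**Figure D2:**
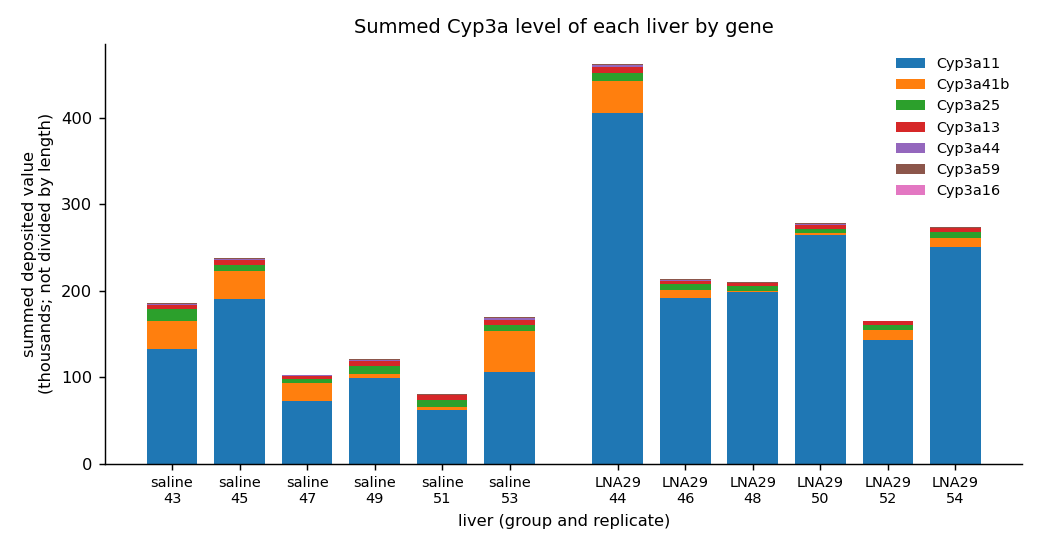
Summed deposited value of the 7 Cyp3a genes in each of the 12 livers (axis in units of 1000, not divided by length), each bar split by gene. Cyp3a11, the lowest segment, makes up 62.6% to 81.5% of the bar in saline livers and 86.9% to 94.97% in LNA29 livers.

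In the makeup of the sum, the groups did not overlap for the shares of Cyp3a11 and Cyp3a44, and they overlapped for those of all other members. Cyp3a11 took from 62.6% over 74.2% to 81.5% of it in saline livers and from 86.9% over 90.3% to 94.97% in LNA29 livers, with no overlap. Cyp3a44 took from 0.638% over 0.801% to 1.52% with saline and from 0.0449% over 0.388% to 0.558% with LNA29, again with no overlap. Cyp3a41b took from 4.09% over 15.4% to 27.7% and from 0.765% over 4.42% to 7.98%, and here the groups overlapped. These shares are tied to each other, since a larger Cyp3a11 share lowers all others. As Cyp3a11 makes up most of the sum, its share is not a result separate from its own level. No rate over all genes was computed for shares. For ratios with Cyp3a11 as the numerator, 9.47% of the other tested genes gave full separation.

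Ratios within a liver do not depend on how the libraries were scaled. The log2 ratio of Cyp3a11 to Cyp3a25 was 3.12 to 4.70 in saline livers and 4.77 to 5.60 in LNA29 livers, and the groups did not overlap, with a mean difference of 1.45. The log2 ratio of Cyp3a11 to Cyp3a44 was 5.37 to 6.98 with saline and 7.30 to 11.04 with LNA29, also without overlap, with a mean difference of 2.09. The ratio to Cyp3a13 was 3.36 to 5.15 and 5.07 to 6.05, with 5 of 6 LNA29 livers above all saline livers. The ratios to Cyp3a41b, Cyp3a59 and Cyp3a16 overlapped more, with 3, 1 and 0 LNA29 livers above the highest saline liver. Of all 12485 other tested genes, 9.47% gave a Cyp3a11 ratio that was higher in every LNA29 liver than in any saline liver, so that separation of this kind was common when Cyp3a11 was the numerator.

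**Figure D3:**
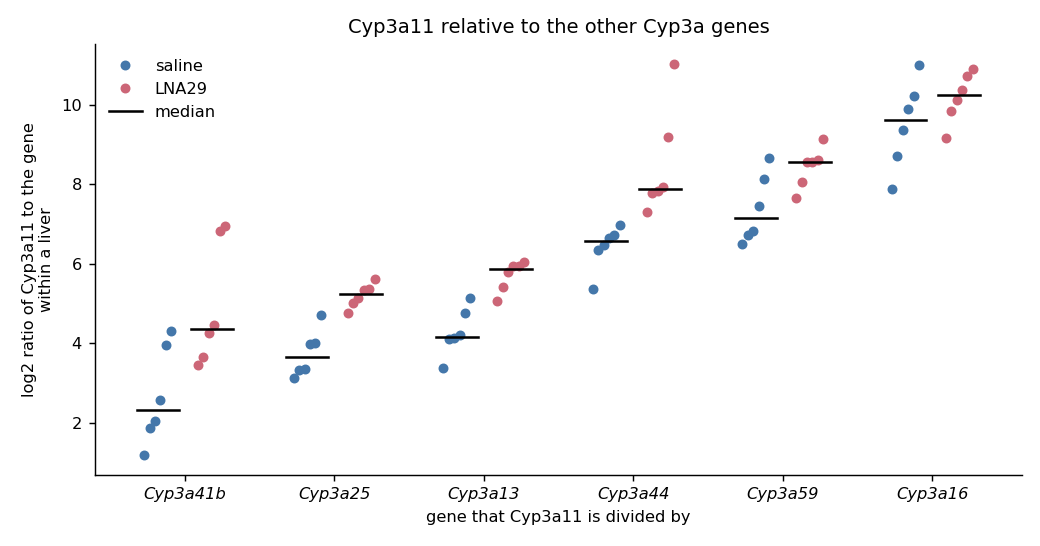
Log2 ratio of Cyp3a11 to each other Cyp3a gene within a liver, for 6 saline livers (blue) and 6 LNA29 livers (red), with a bar at the median. The groups do not overlap for Cyp3a25 and Cyp3a44, and do for the other 4 genes.

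Members differed in how much they varied among livers of 1 group. On the log2 scale the SD within groups was 1.59 for Cyp3a41b and 1.34 for Cyp3a44, which ranked 18 and 23 among 3116 genes averaging 1000 or more, where the median was 0.316. It was 0.55 for Cyp3a11, 0.44 for Cyp3a25 and 0.27 for Cyp3a13. Over the 12 livers the highest Cyp3a41b value was 29.3 times the lowest and the highest Cyp3a44 value 27.4 times the lowest, against 1.91 times for Cyp3a13. The livers at the extremes recurred: saline replicate 53 was the highest saline liver for Cyp3a13, Cyp3a16, Cyp3a41b and Cyp3a44, and saline replicate 51 the lowest for Cyp3a11, Cyp3a16, Cyp3a41b and Cyp3a44. Saline replicate 47 was the lowest saline liver for the other 3 genes, Cyp3a13, Cyp3a25 and Cyp3a59. Of the LNA29 livers, replicate 52 was the lowest for Cyp3a11, Cyp3a16, Cyp3a25 and Cyp3a59, and replicate 48 for Cyp3a13, Cyp3a41b and Cyp3a44.

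With the group means removed, the 21 pairs of members were correlated over the 12 livers. Only Cyp3a25 and Cyp3a59 passed after adjustment over the pairs, with r = 0.86 (permutation p = 0.00076, adjusted 0.0160) and Spearman's rho = 0.86 (permutation p = 0.0015, adjusted 0.0315). Without the 2 livers farthest from the Cyp3a25 median, LNA29 replicate 44 and saline replicate 43, r was 0.84. Within groups r was 0.95 over 6 saline and 0.70 over 6 LNA29 livers. These genes share some 100-base windows, as given above, and the part of shared reads in this relation was not tested. Cyp3a41b and Cyp3a44 followed each other less closely, with r = 0.65 (permutation p = 0.0314, adjusted 0.132) and rho = 0.64 (permutation p = 0.0313, adjusted 0.164), and r was 0.71 without LNA29 replicates 48 and 50, the farthest from the Cyp3a41b median. Cyp3a11 and Cyp3a44 had r = 0.66 (permutation p = 0.0147, adjusted 0.108) and rho = 0.64 (permutation p = 0.0264, adjusted 0.164), and r was 0.51 without LNA29 replicate 44 and saline replicate 51.

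**Figure D4:**
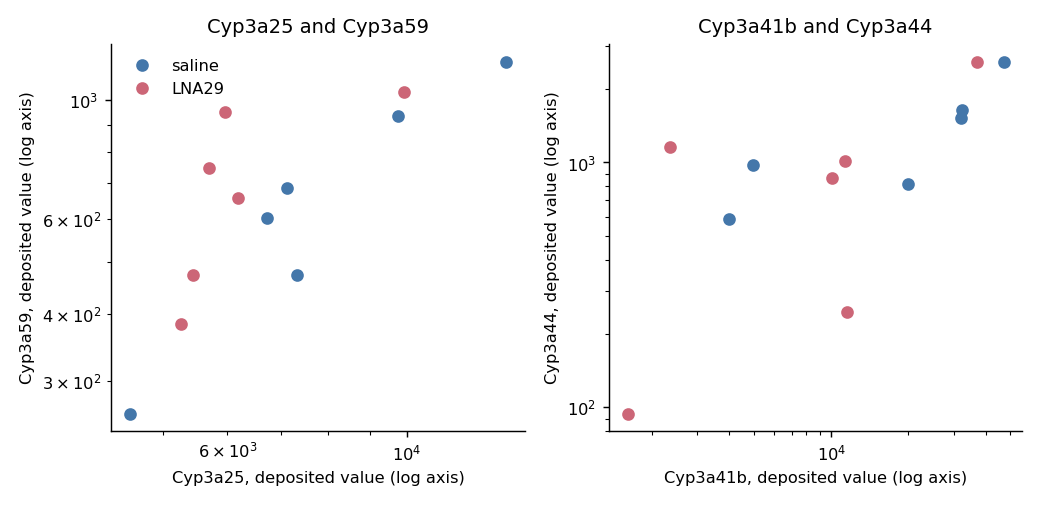
Deposited values of Cyp3a25 against Cyp3a59 (left) and of Cyp3a41b against Cyp3a44 (right), each point 1 liver, saline in blue and LNA29 in red, all axes logarithmic. With the group means removed r is 0.86 on the left and 0.65 on the right.

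The genes whose pattern over the 12 livers lay nearest to Cyp3a11 were taken as those with the smallest root mean square difference in log2 value, each gene centred on its own mean, among 8983 genes with a mean of at least 100 that are not members. These were Col3a1 (0.423), Pnrc1 (0.428), Col6a1 (0.431), Cry1 (0.462) and Col4a1 (0.475), against a median of 0.881. Col3a1, Col6a1 and Col4a1 encode collagen chains, and Cry1 a repressor of the circadian clock. Group means were kept in this measure, so that a gene with a group difference like that of Cyp3a11 lay nearer for that reason. The group differences of these genes therefore follow in part from how they were picked, and they are given as a description only. Col3a1 ran from 158 to 317 in saline livers and from 341 to 938 in LNA29 livers, without overlap, and rose by a log2 fold change of 1.48 ± 0.28 (SE, limma adjusted p = 0.0438). The log2 fold changes of Pnrc1, Col6a1, Cry1 and Col4a1 were 0.66, 0.87, 0.48 and 0.60, with limma adjusted p of 0.502, 0.276, 0.737 and 0.413. For Cyp3a41b the nearest genes were farther off, Kcnj8 (0.902), LOC100048885 (0.936), Tbc1d25 (1.08), Ubox5 (1.10) and Rpap2 (1.11), against a median of 1.59.

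The receptors and factors that act on Cyp3a promoters gave no call after adjustment. Of 15 tested genes, 2 were higher and 13 lower, where 61.4% of all tested genes were lower. At an unadjusted limma p under 0.05 there were 0 higher and 2 lower, beside 1.95% and 5.97% of all tested genes. The median log2 fold change was -0.17, beside -0.093 over all tested genes. Nr1i2 (PXR), the drug-sensing receptor of the family, ran from 1651 over 2792 to 3253 in saline livers and from 1902 over 2539 to 4264 in LNA29 livers, and the groups overlapped. Its log2 fold change was 0.092 ± 0.19 (SE, limma adjusted p = 0.951). Nr1i3 (CAR), the related receptor best known for Cyp2b10, ran from 5958 over 7185 to 8585 with saline and from 4181 over 5113 to 7697 with LNA29. Its log2 fold change was -0.45 ± 0.15 (limma adjusted p = 0.347, unadjusted 0.00748). Of the other 13 genes, Rxra, the partner of both receptors, had a log2 fold change of -0.26. That of Hnf4a, the liver factor whose core was searched above, was -0.054. Nr3c1, the glucocorticoid receptor, had -0.59, and Cebpa -0.40 (limma adjusted p = 0.539 for Cebpa). Ahr, the dioxin receptor, ran from 158 over 230 to 800 with saline and from 75.5 over 349 to 487.5 with LNA29. These values stand for 4 to 80 reads a liver. The log2 fold change of Ahr was -0.055 ± 0.45 (SE), with a confidence interval from -1.01 to 0.90. The paper reports higher Ahr mRNA and protein with LNA29, and an interval this wide cannot decide that. The remaining 8 log2 fold changes lay between -0.62 (Onecut1) and 0.30 (Cebpb), each with an unadjusted limma p above 0.05.

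Among the genes for electron donors and haem supply, 0 passed after adjustment. Of 7 tested genes 2 were higher and 5 lower, where 61.4% of all tested genes were lower, with a median log2 fold change of -0.22. At an unadjusted limma p under 0.05 there were 0 higher and 2 lower, beside 1.95% and 5.97% of all tested genes. Por, the reductase that feeds all microsomal P450 enzymes, ran from 26000 over 29907 to 34549 in saline livers and from 22755 over 39881 to 43658 in LNA29 livers. Its groups overlapped, with a log2 fold change of 0.27 ± 0.17 (SE, limma adjusted p = 0.747). Cyb5b, a cytochrome b5 of the outer mitochondrial membrane, ran from 3804 over 4588 to 6391 with saline and from 2732 over 2929 to 3178 with LNA29, with no overlap. Its log2 fold change was -0.69 ± 0.14 (limma adjusted p = 0.0681, unadjusted 0.00012). Cyb5r3, the reductase of cytochrome b5, had a log2 fold change of -0.48 ± 0.18 (limma adjusted p = 0.459).

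Other PXR and CAR target genes lay on both sides, and 0 passed after adjustment. Of 27 tested genes 7 were higher and 20 lower, where 61.4% of all tested genes were lower, with 3 and 7 at an unadjusted p under 0.05 (1.95% and 5.97% of all tested genes) and a median log2 fold change of -0.45 beside -0.093 over all tested genes. Without Cyp2c55 and Gsta1, which had about 3 reads or fewer in every liver, the median was -0.43. Cyp2b10, the classic CAR target, ran from 730 over 1547 to 3032 in saline livers and from 964 over 3845 to 4585 in LNA29 livers, and its groups overlapped. The log2 fold changes were 1.02 ± 0.40 (SE) for Cyp2b10, 0.97 ± 0.24 for Gadd45b, a stress-response gene, and 0.73 ± 0.27 for Sult1d1, a sulfotransferase, with limma adjusted p of 0.487, 0.141 and 0.455. Cyp2a5, the coumarin hydroxylase, ran from 7894 over 20757 to 32831 with saline and from 5034 over 6334 to 17271 with LNA29. Its log2 fold change was -1.22 ± 0.33, against -1.44 ± 0.51 for Gsta2 and -0.76 ± 0.29 for Gstm3, both glutathione transferases. Their limma adjusted p were 0.210, 0.417 and 0.486, and the unadjusted p 0.00164, 0.0116 and 0.0185.

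**Figure D5:**
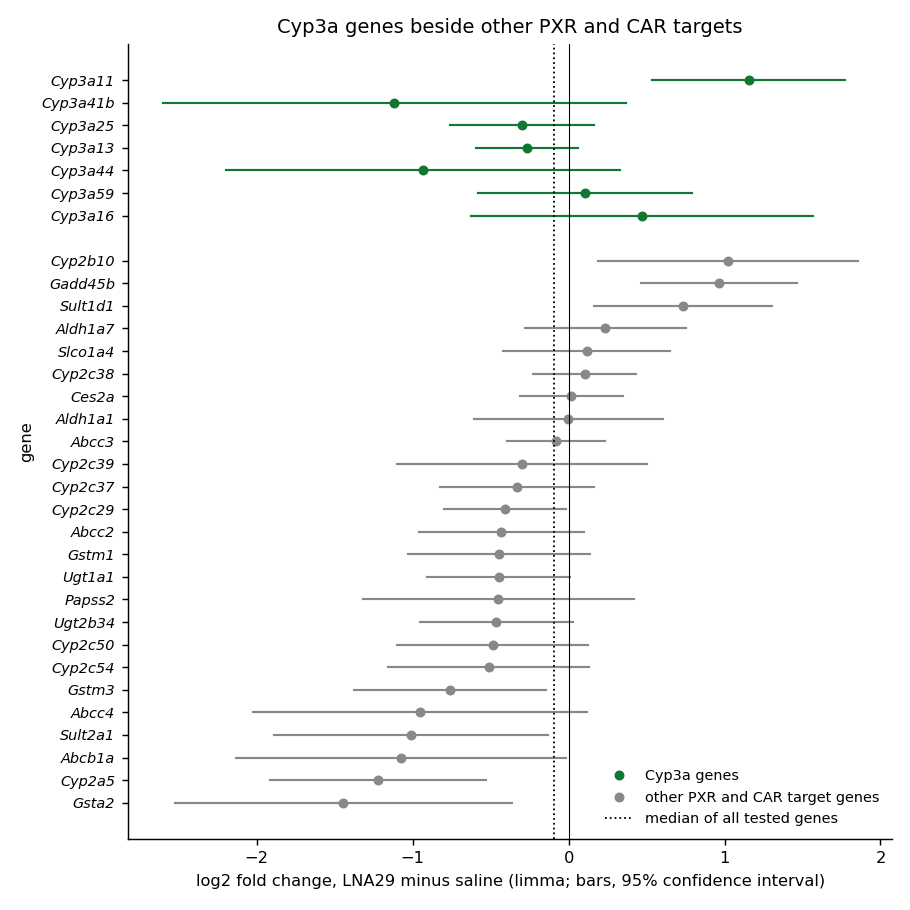
Log2 fold change of LNA29 over saline livers from limma on log2(value + 1) for the 7 Cyp3a genes (green) and for 25 other PXR and CAR target genes (grey), with 95% confidence intervals and a dotted line at the median of all tested genes, -0.093. Cyp3a11 at 1.15 lies with Cyp2b10 at 1.02 and Gadd45b at 0.97, and 18 of these 25 targets lie left of 0, as do 61.4% of all tested genes.

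Genes that differ between the sexes are set out because 2 of the members belong to that class. Of 16 female-biased liver genes 6 were higher and 10 lower, where 61.4% of all tested genes were lower, and the median log2 fold change was -0.29. At an unadjusted limma p under 0.05 there were 0 higher and 5 lower, beside 1.95% and 5.97% of all tested genes. Acot3, a peroxisomal acyl-CoA thioesterase, ran from 2284 over 3298 to 4272 in saline livers and from 929 over 1276 to 1925 in LNA29 livers, and it fell with no overlap. Its log2 fold change was -1.32 ± 0.20 (SE, limma adjusted p = 0.0224). Cyp2b13 and Cyp2b9, female-specific P450 genes, had log2 fold changes of -0.99 ± 0.27 (limma adjusted p = 0.210) and -0.49 ± 0.19 (limma adjusted p = 0.498). Those of Abcd2, a peroxisomal fatty acid transporter, and Prlr, the prolactin receptor, were -0.57 and -0.47. Of 12 male-biased genes 6 were higher and 6 lower. Their median log2 fold change was 0.063, or -0.16 without Cyp4a12b, which had 3 reads or fewer in every liver. At an unadjusted limma p under 0.05 there were 2 higher and 0 lower, beside the same 1.95% and 5.97% of all tested genes. The higher genes were Mup20, a male pheromone carrier, at 0.63 ± 0.20 (limma adjusted p = 0.302), and Cyp4a12a, for which no fold is given because its values were 1 to 20.0 with saline and 18.9 to 103 with LNA29, 5.75 reads at most.

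Growth hormone signalling, which sets that class, gave 5 genes higher and 5 lower of 10 tested, with a median log2 fold change of -0.070. At an unadjusted limma p under 0.05 there were 1 higher and 2 lower, beside 1.95% and 5.97% of all tested genes. Igfals, the carrier subunit that binds IGF1 in plasma, ran from 3778 over 4137 to 4719 in saline livers and from 1537 over 2586 to 3054 in LNA29 livers, with no overlap, and fell by 0.81 on the log2 scale (SE 0.16, limma adjusted p = 0.0468). Ghr, the growth hormone receptor, had a log2 fold change of -0.59 ± 0.19 (limma adjusted p = 0.347). That of Igf1 was 0.43 ± 0.16 (limma adjusted p = 0.455).

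Markers of liver zones and cell types are given because Cyp3a genes are expressed mostly in pericentral hepatocytes. Of 13 pericentral markers 2 were higher and 11 lower, where 61.4% of all tested genes were lower. At an unadjusted limma p under 0.05 there were 0 higher and 3 lower, beside 1.95% and 5.97% of all tested genes. The summed value of these markers ran from 613550 to 1184580 in saline livers and from 353492 to 860108 in LNA29 livers. Rgn, a calcium-binding lactonase, ran from 6649 over 8969 to 17188 with saline and from 2547 over 4285 to 5700 with LNA29, with no overlap, and its log2 fold change was -1.33 ± 0.22 (SE, limma adjusted p = 0.0230). That of Lect2, a secreted hepatocyte protein, was -0.65 ± 0.21 (limma adjusted p = 0.347). Of 12 periportal markers 10 were higher and 2 lower, with 1 each at an unadjusted limma p under 0.05 (1.95% and 5.97% of all tested genes). Their summed value ran from 593984 to 842984 and from 657547 to 1070590. Hsd17b13, a lipid droplet enzyme, had a log2 fold change of 0.79 ± 0.16 without overlap (limma adjusted p = 0.0682), and Cyp2f2 one of -0.48 ± 0.19 (limma adjusted p = 0.488). The median log2 fold change was -0.34 over the pericentral and 0.18 over the periportal list, and the part of a shift between zones in the Cyp3a values was not tested.

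Of 7 general hepatocyte markers 5 were higher and 2 lower, with a median log2 fold change of 0.091. For this and the other cell type lists, the values over all tested genes were 61.4% lower and a median of -0.093. The secreted protein gene Ahsg was the 1 higher at an unadjusted limma p under 0.05, beside 1.95% of all tested genes. Its log2 fold change was 1.67 ± 0.73 (SE, limma adjusted p = 0.582, no overlap). The summed value of the 7 markers, mostly albumin, ran from 34061100 to 115551000 in saline livers, lowest in replicate 49, and from 88594800 to 105493000 in LNA29 livers. Of 9 stellate cell markers 2 were higher and 7 lower (median -0.11, or -0.090 without Hgf, which had 3 reads or fewer), with summed values of 16930 to 23807 and 17197 to 21850, and Ngfr had a log2 fold change of -0.78 ± 0.30 (limma adjusted p = 0.487). Of 10 Kupffer cell markers 2 were higher and 8 lower (median -0.16), with summed values of 13969 to 22316 and 12679 to 24493, and Marco, a scavenger receptor, had 1.08 ± 0.37 (limma adjusted p = 0.391). Of 10 endothelial markers 2 were higher and 8 lower (median -0.19), with summed values of 7544 to 9040 and 6196 to 8071, and Stab1 had -0.34 ± 0.14 (limma adjusted p = 0.567). Bile duct markers gave 3 higher and 3 lower of 6 (median -0.12, or 0.13 without Tspan8, which had 3 reads or fewer; sums of 620 to 923 and 441 to 907). Blood cell markers gave 3 higher and 2 lower of 5 (median 0.045, sums of 36696 to 154269 and 37557 to 171389). The 1 intestinal marker that was tested, Fabp2, a fatty acid binding protein gene, had -0.29, with values of 1406 to 2152 and 1038 to 2220. The part of other cell types in the Cyp3a values was not tested.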

How the data were processed

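Polyadenylated liver RNA from 6 saline and 6 LNA29 mice was sequenced as single reads of 100 bases. The authors mapped the reads with MapSplice2 and estimated reads per gene with RSEM (mm9 in the submitters' processing notes; versions and annotation not given in the sources used here). The deposited values are signal values scaled to an upper quartile of 1000. They were not used as counts, since between 92.2% and 93.9% of them were whole multiples (within 0.02) of the worth of 1 read. The authors' group means, fold changes and p-values and 3 unnamed columns were not used.

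Genes with a mean of at least 10 (12486) were tested with limma 3.58.1 (R 4.3.3) after adding 1 and taking log2, with a mean-variance trend and no covariates. The p-values were adjusted over all of them by Benjamini-Hochberg, and 0.05 was the limit. Fold changes are on that scale, which can distort the change of low genes in either direction. Adding 1 shrinks ratios of small values. The step from no reads, listed at 1, to 1 read, worth 9.80 to 24.4, can enlarge them. Single genes were also tested with a two-sided exact permutation test (Python 3.11.15, numpy 2.4.6, scipy 1.17.1, pandas 2.3.3). The limma fit was tested on simulated data. Transcripts came from GENCODE M21 (GRCm38) and were aligned with mafft 7.526.

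The members and lists were chosen with earlier results of these data known. Named were all members, 7 receptors and donors, listed genes with an unadjusted p under 0.05 (at most 6 per list, those with the smallest p), and the 5 genes nearest to Cyp3a11 and, since Cyp3a41a had no row, to Cyp3a41b. Alternatives were 2 pseudocounts, other filters and scalings, array weights, removal of values more than 1.5 SD from the group mean, and a fit without each liver in turn.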

Additional observations from a re-analysis of the deposited data

Results flagged for a closer look

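In the LNA29 group, replicate 44 held a Cyp3a25 value of 9939, far from the other 5 livers, which held between 5259 and 6177. The gap to the nearest liver was 0.747 of the range of the group on the log2 scale, above Dixon's limit for 6 samples. Of 16 groups examined (7 members and their sum, in 2 groups each), this was the 1 that passed, and chance passes about 1 in 20. The same liver was the highest LNA29 liver for Cyp3a11, Cyp3a13, Cyp3a25, Cyp3a41b, Cyp3a44 and Cyp3a59. Without it the log2 fold change of Cyp3a25 was -0.43 in place of -0.30, and that of Cyp3a11 was 0.99 in place of 1.15.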

How the results depend on the processing

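Cyp3a11 kept its direction and its exact permutation p under 0.05 in all 21 alternatives, with a log2 fold change between 0.99 and 1.33, an exact permutation p between 0.00433 and 0.0173 and a limma adjusted p between 0.0294 and 0.504. With values beyond 1.5 SD of the group mean left out, 1 Cyp3a gene passed the adjusted limma threshold (Cyp3a11, adjusted p = 0.0294) in place of 0, 3 in place of 1 passed at an unadjusted limma p (16.8% in place of 7.91% of all tested genes), 2 in place of 1 passed the exact permutation test (Cyp3a13 at -0.44 besides Cyp3a11; 16.3% in place of 8.5% of all tested genes), and 217 in place of 20 of all tested genes passed the adjusted threshold; leaving out extreme values lowers the spread by construction. The number of all tested genes was 5 without a filter on low values, 10 at a common median and 58 with array weights. Of 2 scalings chosen after seeing the data, the median of ratios gave 15 and scaling to all genes but albumin gave 1. The split into higher and lower was 9 and 11 as deposited, 6 and 4 at a common median, 10 and 5 with the median of ratios and 1 and 0 with albumin left out. The median log2 fold change of all tested genes was -0.093 as deposited, -0.048 at a common median, -0.019 with the median of ratios and -0.16 with albumin left out, and each of the 7 members kept its direction under all 3 scalings. Leaving out 1 liver at a time gave 0 Cyp3a genes past the adjusted threshold, beside 1 to 29 of all tested genes. At an unadjusted limma p under 0.05 these fits gave 1 to 4 Cyp3a genes, beside 6.45% to 9.17% of all tested genes. By the exact permutation test they gave 1 to 2, beside 7.04% to 9.22% of all tested genes. Cyp3a59 reversed, at -0.14 without saline replicate 47 and -0.021 without LNA29 replicate 44, within a leave-one-out range of -0.14 to 0.29, and Cyp3a13 reached an exact permutation p of 0.0303 (-0.35) and 0.0260 (-0.36) without the same livers; the cause was not tested. The other ranges were -1.58 to -0.67 for Cyp3a41b, -1.34 to -0.39 for Cyp3a44, 0.031 to 0.80 for Cyp3a16 and -0.45 to -0.14 for Cyp3a25. Count-based tests and their scalings were not run, because the values were not whole reads for enough genes, and a sum of Cyp3a41a and Cyp3a41b was not run, because Cyp3a41a was not analysed here. No paired analysis was possible because the groups share no replicate number. Few reads limit the precision for Cyp3a16 (3 to 46 a liver), and the lowest livers held 5 reads of Cyp3a44 and 14.9 estimated reads of Cyp3a59.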
